A study of Homo sapiens with 4 samples.

Results

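The expression of 10 genes of the bone morphogenetic protein (BMP) pathway was followed in NCI-H520, an established line of lung squamous cell carcinoma, labelled wild type. The genes are the ligands BMP4, BMP7 and BMP6, the type II receptor BMPR2, the decoy receptor BAMBI, the targets ID1, ID2 and ID3 and the inhibitory SMADs SMAD6 and SMAD7. They were taken by name, without regard to their values, from the 28277 genes of the deposited count table, and all 10 were found and all 10 passed the low-count filter. One group, Vehicle, was given ultrapure water and the other was given 10 µM Hx1R8, with a stated exposure of 12 h, and each group has 2 libraries. Both groups were grown in RPMI-1640 with 15% serum. The labels name Hx1R8 without describing it. By its title, the study sets out to disrupt SOX2 self-association and condensates against drug resistance, and this comparison asks which transcripts Hx1R8 alters.

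BMPs are secreted dimers that bring together type I and type II receptor kinases. The activated type I receptor phosphorylates SMAD1, SMAD5 and SMAD9, which enter the nucleus with SMAD4 and switch on target genes. ID1, ID2 and ID3 are among the most direct of these targets and encode helix-loop-helix proteins without a DNA-binding region, which hold E proteins away from DNA. SMAD6, SMAD7 and BAMBI are also induced and dampen the pathway as feedback inhibitors. In the lung, BMP4 is known for its part in budding and in the patterning of the distal epithelium.

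Sequence upstream of 3 of the feedback and target genes is shown because SMAD proteins are known to bind short DNA motifs. The transcripts of these genes are also the readout below. Binding to the printed stretches was not measured. The SMAD6 window (chr15:66702136-66702235, plus strand) ends at the transcript start, the BAMBI stretch (chr10:28677271-28677345, plus strand) is the distal part of its window, and the ID1 window (chr20:31605119-31605288, plus strand) ends at the transcript start. They come from RefSeq on GRCh38.p14, and each start coincides with the first exon base listed in the deposited table. Capitals mark the palindrome GTCTAGAC in SMAD6, the GC-rich motif GGCGCC in BAMBI, and the SMAD half-site GTCT or its reverse AGAC in ID1.
SMAD6: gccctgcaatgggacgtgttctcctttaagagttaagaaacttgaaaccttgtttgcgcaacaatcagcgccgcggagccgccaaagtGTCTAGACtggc
BAMBI: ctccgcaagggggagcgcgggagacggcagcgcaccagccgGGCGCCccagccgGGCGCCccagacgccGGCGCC
ID1: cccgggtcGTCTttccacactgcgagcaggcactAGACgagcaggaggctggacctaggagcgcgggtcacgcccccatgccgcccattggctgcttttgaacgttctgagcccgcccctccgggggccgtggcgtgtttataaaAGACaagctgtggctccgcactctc

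The RefSeq table matched 9 of the 10 genes with 13 windows of 250 bases before a start, and BMP7 had no entry. GTCTAGAC, which reads the same on both strands and holds the half-site on each of them, was found in 1 of the 13 windows, that of SMAD6, where it begins 12 bases before the start. It is present in 0.182% of the 35116 windows of the whole table. GGCGCC, also the same on both strands, was found in 3 windows: BAMBI with 3 copies, BMPR2 and 1 of the 3 starts of BMP4. It is present in 16.4% of all windows. The half-site GTCT was in 12 of the 13 windows and in 77.5% of all, searched on both strands. CATTGT and CTTTGT, 2 core motifs bound by SOX factors, were in 0 of the 13 windows on either strand, against 9.29% and 13.7% of all windows. The 13 windows held 48.0 to 81.2% GC, and the shares over all windows were not matched for GC. BMP4 and SMAD7 gave 3 windows each. With 13 windows of 250 bases, 0 matches do not show that SOX sites are lacking at these genes. CAGACA, which contains the reverse half-site, was in 2 of the 13 windows, 1 of the 3 starts of BMP4 and BMPR2, and in 13.6% of all windows. GGCGCCTG, which contains GGCGCC, was in 0 of the 13 windows and in 2.89% of all. These are the 7 motifs searched, and the stretches printed were picked after the matches were seen. A match is a run of letters and not a measured binding site.

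Library totals were 17483349 and 17352323 reads in Vehicle and 17259403 and 20920857 in Hx1R8, and levels are given as CPM, the reads of a gene scaled to the size of its library. A floor of 3 reads corresponds to 0.143 to 0.174 CPM. Vehicle replicate 2 stood apart from the other 3 libraries, with chi-square values per gene of 2.19 to 2.81 in its 3 pairs against 1.45 to 1.73 in the others. SOX2 was at 498 to 541 CPM in the 4 libraries. Of 7 squamous markers, KRT14 and DSG3 had 0 reads in every library and TP63 was below 1 CPM. KRT5 was at 1.16 to 1.91 CPM, DSC3 at 6.06 to 7.61 CPM, KRT6A at 17.1 to 19.9 CPM and SFN at 22.1 to 26.65 CPM. Defining markers of the labelled squamous type were thus in part absent or scarce. The summed level of the 7 markers was 53.4 and 54.9 CPM in Vehicle and 49.3 and 50.01 CPM in Hx1R8, and 0 of the 5 tested were called. An unadjusted p under 0.05 by edgeR was reached by 3 of the 5, against 3.39% of all tested genes. Of these, KRT6A (log2 -0.184) and SFN (-0.218) were lower after Hx1R8 and DSC3 (0.314) was higher. The part of these markers in the results below was not tested. The summed level of 5 neuroendocrine markers was 563 to 571 CPM and that of 6 fibroblast markers 8.25 to 8.83 CPM. The labels do not say that the libraries came from separate cultures, so the p-values reflect the spread of these libraries alone, and that spread may be technical.

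The pathway was expressed from ligand to target, and ID3 was its most abundant transcript. Levels of different genes were compared in CPM per kilobase of exon. The length used covers all listed exons of a gene and not the transcript expressed, so order, ratios and percentiles depend on it. The order of mean levels was ID3 (413.5), BAMBI (151.9), ID1 (110.9), ID2 (51.4), BMP4 (36.8), BMP7 (25.6), BMPR2 (8.17), SMAD7 (7.43), SMAD6 (5.36) and BMP6 (1.64). Neighbours in this order had library values that did not overlap, except BMPR2 (7.94 to 8.38) and SMAD7 (7.05 to 8.06). ID3 stood at the 99.5th percentile of the 14482 tested genes on this scale, BAMBI at 97.9, ID1 at 96.6 and ID2 at 91.0. The ligands BMP4 and BMP7 were at 86.9 and 81.3, whereas BMPR2, SMAD7, SMAD6 and BMP6 were at 54.2, 51.8, 44.6 and 25.0. The deposited table lists ID3 on chromosome 1 and again on an alternative contig, which doubles its listed length to 1900 bases. The 950 bases on chromosome 1 were used here, and with the listed length ID3 was at 206.7 CPM per kilobase and still first. How reads that match both places were counted is not stated, which bears on the level of ID3.

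**Figure D1:**
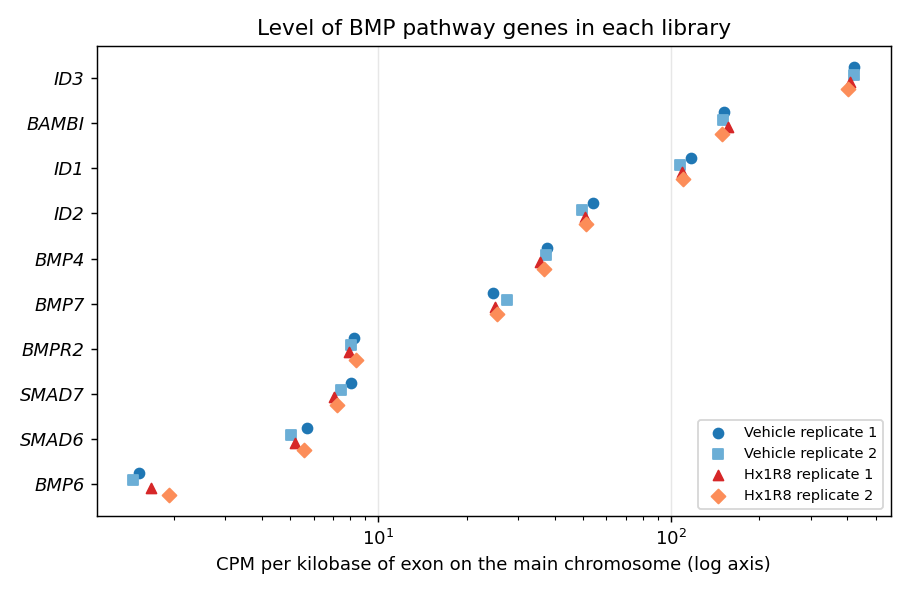
Level of each of the 10 genes in CPM per kilobase of exon (log axis), 1 symbol per library, ordered by the mean of the 4 libraries. ID3 lies highest at 402 to 423 and BMP6 lowest at 1.45 to 1.92, and the spread within a gene is small beside the distance between most genes.

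After Hx1R8 none of the 10 genes passed the test. By edgeR's quasi-likelihood test with Benjamini-Hochberg adjustment over 14482 genes, 0 of 10 had an adjusted p under 0.05, and 0 of 10 had an unadjusted p under 0.05, which 4 of 110 values recomputed under the alternatives did have (BMP6, BMP7 and SMAD7). DESeq2 and limma-voom also called 0 of the 10, against 0.00953% and 0.0207% of all genes they tested. Over all tested genes 3 were called, which is 0.0207%, and 3.39% had an unadjusted p under 0.05, so a count of 0 among 10 genes lies near the background. In bulk RNA, fewer cells expressing a gene and less RNA per cell cannot be told apart. The estimates lay between log2 -0.12 and 0.28, with 4 genes above 0 and 6 below and a median of -0.03, against -0.002 over all tested genes. All 10 intervals at 95% lay within 1.5-fold of no change, as did those of 81.4% of tested genes. These intervals rest on 2 residual degrees of freedom and 36.9 added from the spread of all genes.

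**Figure D2:**
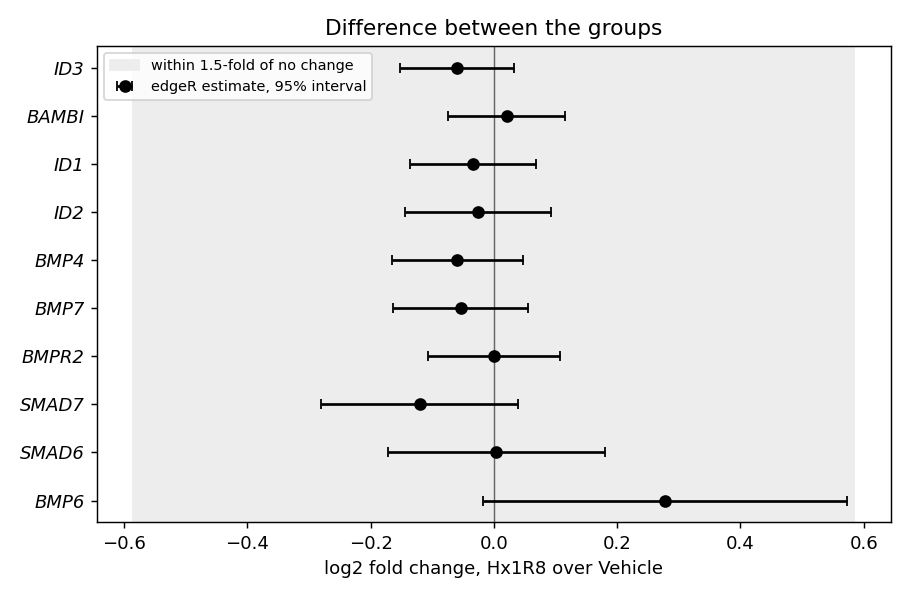
Estimated log2 fold change of Hx1R8 over Vehicle for each of the 10 genes, with the 95% interval from the edgeR fit, and the range within 1.5-fold of no change in grey. Every interval includes 0, and BMP6 has the widest interval, from -0.02 to 0.57.

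Among the ligands, BMP4 and BMP7 were abundant and differed little between the groups. BMP4 (chromosome 14, 53949736 to 53956891, minus strand) was at 97.3 and 96.4 CPM in the Vehicle libraries and 91.5 and 94.45 CPM after Hx1R8. Both Hx1R8 libraries were below both Vehicle libraries, by an amount close to the difference within Hx1R8. The fold was 0.960 (95% interval 0.892 to 1.03, adjusted p = 0.9999 by edgeR). BMP7 (chromosome 20, 57168753 to 57266641, minus strand), a ligand that forms heterodimers with other BMPs, was at 99.3 and 110.7 CPM without Hx1R8 and 100.4 and 101.8 CPM with it. Vehicle replicate 2 was its highest library, and the Hx1R8 libraries lay between the 2 Vehicle libraries. Its fold was 0.963 (0.892 to 1.04, adjusted p = 0.9999 by edgeR).

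BMP6 had the highest estimate of the 10 genes and the lowest level. BMP6, a ligand known for its role in hepcidin control, had 101 and 95 reads in Vehicle and 109 and 152 in Hx1R8, which is 5.77 and 5.49 CPM against 6.33 and 7.25 CPM. Both Hx1R8 libraries were above both Vehicle libraries, with replicate 2 the higher. The fold was 1.21 (0.988 to 1.49), with an unadjusted p of 0.0646 and an adjusted p of 0.9999 by edgeR. BMP6 lies on chromosome 6 (7726099 to 7881728, plus strand), and its last exon overlaps on the opposite strand with 2 listed genes, TXNDC5 over 215 bases (7881514 to 7881728) and BLOC1S5-TXNDC5 over 479 bases, which leaves 87.3% of its 3784 exon bases unshared. TXNDC5, a protein disulfide isomerase gene, was 1 of the 3 genes called, at 48 and 44 reads in Vehicle and 138 and 205 in Hx1R8 (log2 1.76, adjusted p = 8.3e-09 by edgeR). BLOC1S5-TXNDC5, also listed over these 215 bases, had 0 and 0 reads in Vehicle and 0 and 2 in Hx1R8. How reads of bases common to TXNDC5 and BLOC1S5-TXNDC5 were counted is not stated, which bears on the level of TXNDC5. Hx1R8 replicate 2 was the higher library for both BMP6 and TXNDC5. No source used here states whether the counting took strand into account, so reads of the shared bases cannot be assigned, and their part in the value of BMP6 was not tested.

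The other ligands split between a few well expressed genes and many that were scarce. Of 18 further BMP and GDF ligands, 10 were tested, 0 were called in either direction, 5 were above 0 and 5 below, and the median log2 fold change was 0.005. AMH, the anti-Müllerian hormone, was at 53.8 and 49.1 CPM in the Vehicle libraries and 52.1 and 51.6 CPM after Hx1R8. Its mean of 28.6 CPM per kilobase lay above that of BMP7, but its library values (27.14 to 29.76) overlapped those of BMP7 (24.7 to 27.52). Its receptor AMHR2 had 0 reads in all 4 libraries. GDF11 was at 73.6 and 78.6 CPM without Hx1R8 and 76.6 and 73.8 CPM with it. BMP8B was at 40.1 and 46.0 CPM in the Vehicle libraries and 44.1 and 49.0 CPM after Hx1R8, and BMP8A at 29.0 and 28.9 against 30.8 and 27.3 CPM. These 2 are close copies of each other, and reads could be split between them. BMP5 had the highest estimate of the list, from 9 and 5 reads in Vehicle and 15 and 18 in Hx1R8 (log2 1.10, SE 0.45, unadjusted p = 0.0196, adjusted p = 0.9999 by edgeR). BMP2 had 15 and 13 reads against 25 and 16. BMP15 and GDF3 had 0 reads in every library, which allows up to 0.143 to 0.174 CPM. GDF1 also had 0 reads, but all 2579 of its exon bases are shared with CERS1, so its level cannot be read.

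The receptors did not differ detectably. BMPR2 (chromosome 2, 202376327 to 202567749, plus strand), the type II receptor specific to BMPs, was at 99.7 and 97.5 CPM without Hx1R8 and 95.8 and 101.2 CPM with it. The 2 Hx1R8 libraries enclosed the Vehicle libraries, and the fold had a 95% interval of 0.929 to 1.08 (adjusted p = 0.9999 by edgeR). Of 13 other receptors and coreceptors 10 were tested and 0 were called, with 7 above 0 and 3 below and a median of 0.044. The most abundant BMP type I receptor was BMPR1A, at 71.2 and 64.8 CPM in the Vehicle libraries and 68.4 and 68.4 CPM after Hx1R8. Per kilobase of exon, BMPR1A was 2.30 to 2.65 times the level of ACVR1, another type I receptor, in the 4 libraries. On that scale BMPR2 was 0.420 to 0.451 times BMPR1A, but in CPM BMPR2 was higher than BMPR1A. The listed exons of BMPR2 are longer, at 12068 against 3616 bases. BMPR1B was scarce, at 23 and 14 reads in Vehicle and 21 and 23 in Hx1R8. ACVRL1, the endothelial type I receptor, had 0 reads in every library, and so had the coreceptor HJV.

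BAMBI, which resembles a type I receptor but lacks the kinase domain, was more abundant than any receptor listed here. BAMBI (chromosome 10, 28677521 to 28682932, plus strand) was at 256 and 254 CPM without Hx1R8 and 265 and 253 CPM with it. Hx1R8 replicate 1 was its highest library and Hx1R8 replicate 2 its lowest. The fold was 1.01 (0.950 to 1.08, adjusted p = 0.9999 by edgeR). Per kilobase, BAMBI was 7.70 to 8.37 times the level of BMPR1A in the 4 libraries.

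Genes listed as secreted inhibitors and modulators were mostly scarce, with 12 of 20 below 1 CPM in every library and 9 tested. None was called, with 3 above 0 and 6 below and a median of -0.05. NOG, which encodes noggin, had 0 and 3 reads in Vehicle and 7 and 5 in Hx1R8, too few to be tested. TWSG1, which binds BMPs together with chordin, was at 27.95 and 21.5 CPM in the Vehicle libraries and 23.1 and 26.3 CPM after Hx1R8. SOSTDC1, an antagonist of BMP and WNT ligands, had the smallest unadjusted p of all the pathway lists, with 40 and 36 reads in Vehicle and 22 and 25 in Hx1R8. Both Hx1R8 libraries were lower, at a fold of 0.564 (0.387 to 0.821, unadjusted p = 0.00376, adjusted p = 0.9999 by edgeR). NBL1 had at most 2 reads in a library, and 1888 of its exon bases are shared with the read-through gene MICOS10-NBL1, so its level cannot be read.

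The SMADs that carry the signal were expressed at moderate levels with little spread. SMAD5 was at 149.8 and 146.0 CPM without Hx1R8 and 151.6 and 151.8 CPM with it, SMAD1 at 31.8 and 31.0 against 31.0 and 32.1 CPM, and the common partner SMAD4 at 115 and 118 against 119 and 120 CPM. Of 20 transducers and their regulators, among them the ubiquitin ligases SMURF1 and SMURF2 and the corepressors SKI and SKIL, 19 were tested and 0 were called. Values were above 0 for 13 and below for 6, with a median of 0.01, and all 19 intervals lay within 1.5-fold of no change.

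The inhibitory SMADs were scarce beside the ID genes. SMAD6 (chromosome 15, 66702236 to 66782849, plus strand), the inhibitor more selective for BMP receptors, had 395 and 344 reads in Vehicle and 353 and 461 in Hx1R8, which is 22.6 and 19.9 CPM against 20.5 and 22.0 CPM. The groups overlapped fully, and the fold was 1.003 (0.888 to 1.13, adjusted p = 0.9999 by edgeR). SMAD7 (chromosome 18, 48919853 to 48950711, minus strand), which blocks both BMP and TGF-beta receptors, had 486 and 442 reads in Vehicle and 418 and 519 in Hx1R8, which is 27.8 and 25.6 CPM against 24.3 and 24.8 CPM. Both Hx1R8 libraries were below both Vehicle libraries, but the distance between the groups was about as large as that between the Vehicle libraries. SMAD7 had the lowest estimate of the 10 genes, at a fold of 0.920 (0.823 to 1.03, unadjusted p = 0.138, adjusted p = 0.9999 by edgeR). Per kilobase, SMAD7 was 1.29 to 1.48 times SMAD6 in the 4 libraries.

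The ID genes were abundant in both groups. ID3 (chromosome 1, 23557926 to 23559501, minus strand) was at 402 and 400.3 CPM in the Vehicle libraries and 387 and 382 CPM after Hx1R8. Both Hx1R8 libraries were lower, at a fold of 0.959 (0.8999 to 1.02, adjusted p = 0.9999 by edgeR). ID1 (chromosome 20, 31605289 to 31606510, plus strand) was at 143 and 132 CPM without Hx1R8 and 133 and 134 CPM with it, with the Hx1R8 libraries between the Vehicle libraries. Its fold was 0.977 (0.910 to 1.05, adjusted p = 0.9999 by edgeR). ID2 (chromosome 2, 8682056 to 8684461, plus strand) followed the same order of libraries, at 70.2 and 64.5 CPM in the Vehicle libraries and 66.05 and 66.4 CPM after Hx1R8, with a fold of 0.983 (0.905 to 1.07, adjusted p = 0.9999 by edgeR). The ratio of ID1 to ID2 per kilobase lay between 2.15 and 2.17 over the 4 libraries, and that of ID3 to ID1 between 3.62 and 3.92. These ranges were not compared with counting error or with those of unrelated gene pairs, so a shared control cannot be read from them. The exons of ID1, ID2 and ID3 are shared with no other listed gene.

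ID4, the fourth family member and not among the 10 genes, was at 67.7 and 63.8 CPM without Hx1R8 and 71.6 and 72.2 CPM with it. Both Hx1R8 libraries were higher, at a fold of 1.09 (1.01 to 1.19, unadjusted p = 0.0298, adjusted p = 0.9999 by edgeR). ID1 was 6.53 to 6.67 times ID4 per kilobase in Vehicle and 5.89 to 5.90 times in Hx1R8. The E proteins that ID proteins bind were abundant and had narrow intervals. As means of the 2 Vehicle and the 2 Hx1R8 libraries, TCF3 had 629 and 623 CPM, TCF4 736 and 740 CPM and TCF12 222 and 225 CPM. Per kilobase, TCF3 had 126 CPM and ID3 had 413.5.

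Further BMP target genes showed no shared direction. Of 16 listed, 15 were tested, 0 were called, 6 were above 0 and 9 below, and the median was -0.03. TBX3, a T-box repressor, was the most abundant at 388 and 390 CPM in the Vehicle libraries and 379 and 368 CPM after Hx1R8. The homeobox genes MSX1 and MSX2 had folds of 1.02 (0.899 to 1.15) and 0.978 (0.867 to 1.10). ATOH8 had the lowest estimate, with 109 and 72 reads in Vehicle and 67 and 74 in Hx1R8 (log2 -0.49, SE 0.18, unadjusted p = 0.0101, adjusted p = 0.9999 by edgeR). Its 2 Vehicle libraries differed from each other by more than Vehicle replicate 2 differed from either Hx1R8 library. JUNB was at 25.4 and 24.8 CPM without Hx1R8 and 22.4 and 22.2 CPM with it (fold 0.890, 0.795 to 0.996, adjusted p = 0.9999 by edgeR).

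The TGF-beta branch, which signals through SMAD2 and SMAD3, was also listed for comparison. Of 18 genes 16 were tested and 0 were called, with 8 above 0 and 8 below and a median of -0.001. THBS1, an activator of latent TGF-beta, stood out by its level of 3180 and 3302 CPM in Vehicle and 3208 and 3258 CPM in Hx1R8 (fold 0.997, 0.935 to 1.06). Over the 7 lists together 82 of 108 genes were tested, 0 were called by edgeR and 5 (BMP5, SOSTDC1, ID4, ATOH8 and JUNB) had an unadjusted p under 0.05, which is 6.1% of the 82 against 3.39% of all tested genes. Of these 5, ID4, ATOH8 and JUNB were among the 15 tested further BMP target genes, with ID4 above 0 and the other two below.

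**Figure D3:**
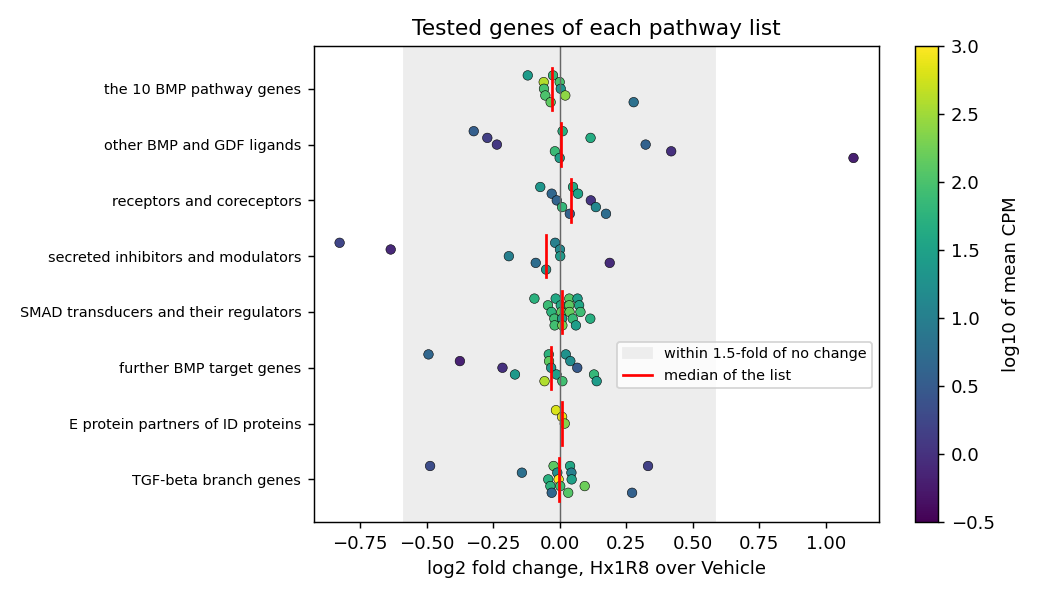
Log2 fold change of each tested gene in the 10 BMP pathway genes and 7 further lists, coloured by mean CPM on a log10 scale, with the list median in red and the range within 1.5-fold of no change in grey. The medians lie between -0.05 and 0.04, and the points farthest from 0 (BMP5 at 1.10, SOSTDC1 at -0.83) are dark, that is scarce.

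For most of the 10 genes, variation between the libraries was as large as the difference between the groups. For 6 of the 10 genes the estimate was smaller than the difference within at least 1 of the groups, and for SMAD7 both were 0.12 in size on the log2 scale. The estimates of BMP4 (-0.059), BMP6 (0.278) and ID3 (-0.06) were larger in size than both within-group differences. These were 0.013 and 0.046 for BMP4, 0.072 and 0.196 for BMP6, and 0.005 and 0.02 for ID3, in Vehicle and Hx1R8. The groups did not overlap for 4 (BMP4, BMP6, ID3 and SMAD7), against 29.8% of all tested genes. The highest library exceeded the lowest by 1.05 to 1.14 times for the 9 genes above 10 CPM and by 1.32 times for BMP6. ID1, ID2, SMAD6 and SMAD7 were each highest in Vehicle replicate 1, where they exceeded Vehicle replicate 2 by log2 0.12, 0.12, 0.18 and 0.12. ID3 differed by 0.005 and BAMBI by 0.014 between these libraries, and BAMBI was highest in Hx1R8 replicate 1. Vehicle replicate 2 was below Vehicle replicate 1 for 9 of the 10 genes, against 50.7% of all tested genes. The cause was not tested. BMP7 went the other way by -0.16. Of the 9 genes above 10 CPM, 6 were highest in Vehicle replicate 1, against 26.7% of the 9640 genes at or above 10 CPM. Among those genes 20.4% were at least log2 0.1 higher in Vehicle replicate 1 than in Vehicle replicate 2. This pattern lies within the control group and the 4 libraries are too few to rank genes by likeness of pattern.

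**Figure D4:**
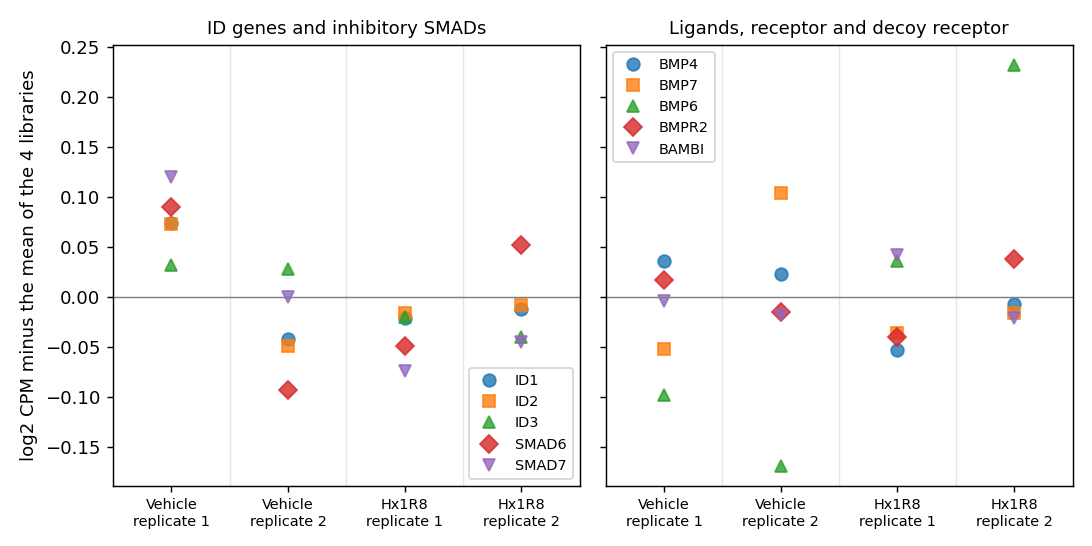
Log2 CPM of each gene in each library minus its mean over the 4 libraries, with the ID genes and inhibitory SMADs on the left and the ligands, BMPR2 and BAMBI on the right. The 5 genes on the left lie above 0 in Vehicle replicate 1 (0.03 to 0.12). On the right, BMP4 (0.036) and BMPR2 (0.017) also lie above 0 there, and BAMBI (-0.004), BMP7 (-0.052) and BMP6 (-0.098) lie below. BMP6 lies at 0.23 in Hx1R8 replicate 2.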

How the data were processed

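The authors deposited a table of raw read counts, 4 libraries by gene, which lists, per the file headers, exon coordinates and a summed exon length per gene. Per the submitters' processing notes, the aligner was STAR 2.7.9 and the genome hg38. Counting tool, annotation and strand setting: not given in the sources used here. Per the labels' protocols, 1.5 µg of total RNA went into each library. Left out were 2 lines holding a broken row without reads. Rows naming no gene numbered 0.

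The test was edgeR 4.0.16 under R 4.3.3 (quasi-likelihood, TMM factors of 0.998 to 1.002, filterByExpr, group as the only term, two-sided, Benjamini-Hochberg over 14482 genes, threshold 0.05), checked on simulated data. CPM used TMM-scaled totals, and CPM per kilobase used the exon bases on the main chromosome. Intervals of folds came from the fit, and floors cover counting error only. Alternatives used median-ratio or upper-quartile factors, other filters, DESeq2 1.42.0, limma-voom (limma 3.58.1), the replicate number as a block, and each library left out.

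The 10 genes, the 7 lists (108 genes, 108 found in the table) and the markers were chosen with earlier results of these data known. The 10 genes were all described. Any list gene could be named. Motifs were chosen after the data were examined, all 7 searched are reported, and the printed stretches and capitals were picked after the matches were seen. Motifs were searched in RefSeq windows of GRCh38.p14.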

Additional observations from a re-analysis of the deposited data

How the results depend on the processing

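None of the 10 genes was called under any of the 11 alternatives (smallest adjusted p 0.252, for BMP7 without Vehicle replicate 1). An unadjusted p under 0.05 was reached by BMP6 with no low-count filter (0.0481) and without Hx1R8 replicate 1 (0.0387), BMP7 without Vehicle replicate 1 (0.00755) and SMAD7 without Vehicle replicate 2 (0.0468). Of 110 recomputed values 10 changed sign, all uncalled and the cause not tested. For BMPR2 the value was -5.7e-05 with limma-voom and -0.00021 with the replicate block. With 1 library left out, ranges crossed 0 for BMPR2 (-0.041 to 0.039), BMP7 (-0.13 to 0.028), BAMBI (-0.0088 to 0.053), ID1 (-0.089 to 0.026), ID2 (-0.083 to 0.037) and SMAD6 (-0.081 to 0.099). BMP6 stayed above 0 (0.168 to 0.366), and BMP4 (-0.083 to -0.035), ID3 (-0.069 to -0.05) and SMAD7 (-0.176 to -0.058) stayed below 0.

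Over all genes, DESeq2 gave 1 gene higher. With 1 library left out, the group's remaining library is taken to vary as much as the other group does, and 2 to 41 genes were higher and 1 to 38 lower. The totals were 79 (0.534% of tested genes) without Vehicle replicate 1, 31 (0.208%) without Vehicle replicate 2, 7 (0.047%) without Hx1R8 replicate 1 and 6 (0.0406%) without Hx1R8 replicate 2. With the replicate block 2 genes were higher and 1 lower. The samples share only a number, and the deviations of same-numbered samples correlated at 0.031 across genes. Depth limits statements on BMP5, BMP2, NOG and other ligands and inhibitors near or below 1 CPM.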
